A study of Mus musculus with 8 samples.

Results

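The genes described here are 50 genes of mitosis, and their RNA was followed gene by gene in cardiomyocytes of newborn mice. They were chosen by name from a list of mitotic kinases and of spindle checkpoint, kinetochore, kinesin, chromosomal passenger, anaphase and condensin genes. All 50 symbols were found among the 48440 entries of the count table, and all 50 passed the filter on low counts, as did 13771 genes in all. The samples were purified cardiomyocytes of C57BL6/J pups at postnatal day 2, and each of 4 litters gave the heart of 1 male and that of 1 female. All libraries shared strain and age, and the labels name no genotype, treatment, batch or preparation day. The study therefore allows the sexes to be compared over 4 hearts each, and the litters over 2 hearts each. Effects of the litter itself and of the day on which its hearts were prepared cannot be told apart.

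In mitosis the replicated chromosomes are condensed, attached through kinetochores to spindle microtubules, and pulled apart once the spindle checkpoint is satisfied and the anaphase-promoting complex (APC/C) marks securin and cyclin B for destruction. Most of these genes are transcribed mainly in the G2 and M phases, under the MuvB complex with B-Myb and FOXM1, so that their RNA is widely read as a measure of cycling cells. Around birth, mouse cardiomyocytes make a last round of DNA synthesis and mitosis, often without cytokinesis, and then leave the cell cycle. In bulk RNA, fewer cycling cells and less of these RNAs per cell cannot be told apart.

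Total counts ran from 14226342 (female of litter 3) to 24910243 (male of litter 1), and the 50 genes together held 7304 to 34990 of them. Levels are given as CPM, a count divided by the library total after TMM scaling, which makes libraries of unequal depth comparable. The SD or the standard error (SE) in the text covers the spread between hearts, and no label says that a heart was sequenced more than once. Reads of the mitochondrial genome took 13.4% to 15.2% of a library, except in the male of litter 4, where they took 18.5%. The 12 cardiomyocyte markers, such as Myh6 and Tnnt2, summed to 77804 to 103633 CPM and marked each library as heart muscle.

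Nearly all of the mitotic genes differed between the litters, and none passed the test between the sexes. Summed over the 50 genes, the level was 1405, 887, 407 and 749 CPM in the males of litters 1 to 4 and 1206, 920.4, 503 and 783 CPM in the females. Litter 1 was high and litter 3 low in both sexes, and the litter 1 sum was 3.46 times that of litter 3 in males and 2.40 times in females. In edgeR's quasi-likelihood test of the 4 litters, 47 of the 50 genes differed at an adjusted p under 0.05, against 32.1% of all genes tested. Set against the mean of the other 3 litters, 47 were higher in litter 1, where 7.86% of all genes were called higher, and 0 were lower, where the background was 5.41%. In litter 3, 47 were lower, with 14.8% of all genes called lower, and 0 were higher, with 13.6%. The 3 genes outside these calls were Cdc25b, Bub3 and Pttg1, which are described last among the members. Over the 50 genes the median log2 difference was 1.26 in litter 1 and -1.69 in litter 3, while over all genes tested it was -0.00 and 0.00. With litter 3 left out of the reference, the litter 1 median was 0.74 and 43 of the 50 genes were higher. The share over all genes was not taken in that fit, so the 43 cannot be set against a background. At an unadjusted p under 0.05, 0 genes were lower in litter 1 and 0 higher in litter 3, and DESeq2 also called 0 of either. The comparisons of single litters share libraries and are not independent of each other.

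**Figure D1:**
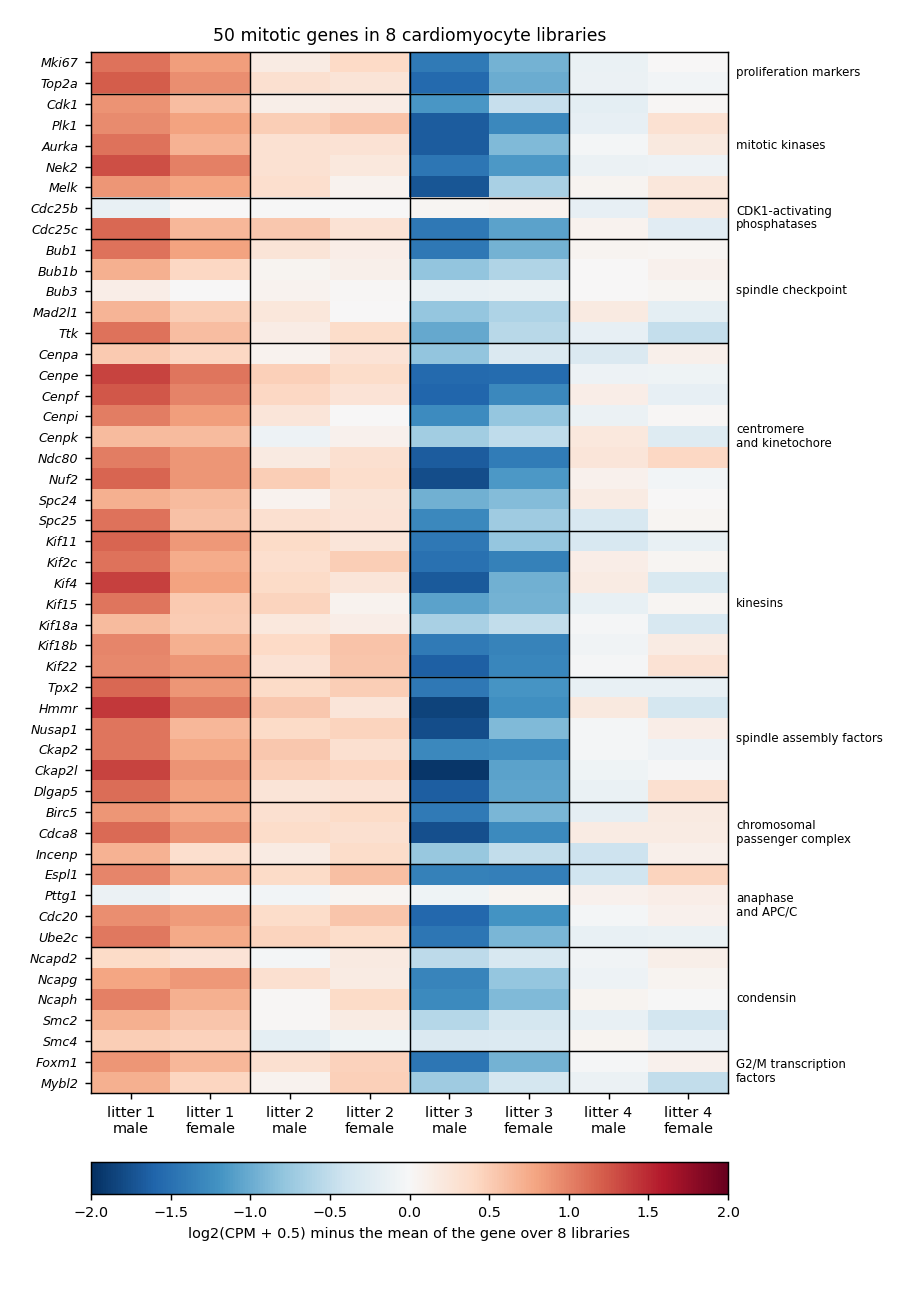
Level of each of the 50 genes (rows, by class) in the 8 libraries (columns), shown as the difference from the gene's mean over the libraries on the scale of log2(CPM + 0.5). Both litter 1 columns are high and both litter 3 columns low for nearly all rows, with Cdc25b, Bub3 and Pttg1 as near-flat rows.

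For most genes the libraries of litters 1 and 3 did not overlap the others. Both libraries of litter 3 lay below the other 6 for 45 of the 50 genes, against 16.4% of all genes tested, and both libraries of litter 1 lay above the other 6 for 45, against 8.89%. For 31 genes the 4 litters stood in the order 1, 2, 4, 3 from high to low with no overlap between neighbouring litters, which held for 1.51% of all genes. That order was taken from the summed level of these same genes, so the count is a description. The size of the change in litter 3 differed among the members. There, 15 genes were lower by 2 or more on the log2 scale, 18 by 1.5 to 2, 4 by 1 to 1.5 and 9 by 0.5 to 1, which left 4 with smaller differences. The ratio of the litter 1 mean to the litter 3 mean had a median of 4.43 over the members and reached 7.85 for Cenpe.

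Markers of other cell types also differed between the litters. Over all genes tested, 7.86% were higher and 5.41% lower in litter 1, and 13.6% were higher and 14.8% lower in litter 3. The 8 fibroblast markers summed to 166, 243, 51.8 and 227 CPM in the males of litters 1 to 4 and 111, 153, 32.4 and 108 CPM in the females, with 6 of 8 lower in litter 3 and 3 of 8 higher in litter 1. The 8 endothelial markers summed to 16, 81.4, 18 and 29.4 CPM in males and 61.9, 148, 19.6 and 23.8 CPM in females, with 5 of 8 lower in litter 3 and 0 called in litter 1. Among mural and smooth muscle markers, 3 of 6 and 2 of 4 were lower in litter 3. In litter 1, 1 mural marker was lower, and 1 smooth muscle marker was higher and 1 lower. Of the 12 cardiomyocyte markers 6 were lower and 1 was higher in litter 3, while 4 were higher and 1 was lower in litter 1. Erythroid markers summed to 98.6 to 532 CPM, highest in the male of litter 3, with 2 of 6 tested higher in that litter. Macrophage markers summed to 5.64 to 10.05 CPM with Cd163 at 0, neutrophil and lymphocyte markers to at most 0.135 CPM with Ly6g, Camp, Cd3e, Cd3d and Ms4a1 at 0 in all libraries, and epicardial markers to 2.20 to 5.14 CPM, with 2 of 5 tested lower in litter 3 and 1 higher in litter 2. The part of these markers in the mitotic differences was not tested.

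Promoter sequences were read for the members because genes of G2 and M phase are known to share 2 short elements, the cell cycle genes homology region (CHR) and the CCAAT box. The RefSeq promoter table (GRCm38.p6) gave 46 windows, from 250 bases before to 50 after a start site, for 43 of the 50 genes. The CHR was searched as TTTGAA, as TTCGAA and as TTTAAA on either strand, with overlapping matches allowed, and stood in 71.7% of these windows and in 20.9% of the windows of all genes tested. CCAAT on either strand stood in 73.9% against 37.5%, and both stood in 63.0% against 8.36%. The 150 bases before the start are printed 5′ to 3′ for 4 genes that had both sets of letters and were called in litters 1 and 3, for Cdc25b, which had both sets of letters in its window and passed no litter test, and for Ncaph, which had neither and was called in litters 1 and 3. Capitals mark the CHR letters and CCAAT, or TTCAAA and ATTGG where an element lies on the other strand. The CHR letters of Cdc25b lie after its start, among the bases not printed.
Top2a (chr11:99024190-99024339, minus strand): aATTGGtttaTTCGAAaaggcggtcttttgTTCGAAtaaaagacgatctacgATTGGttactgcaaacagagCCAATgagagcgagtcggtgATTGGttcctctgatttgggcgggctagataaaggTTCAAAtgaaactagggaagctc
Cdk1 (chr10:69352913-69353062, minus strand): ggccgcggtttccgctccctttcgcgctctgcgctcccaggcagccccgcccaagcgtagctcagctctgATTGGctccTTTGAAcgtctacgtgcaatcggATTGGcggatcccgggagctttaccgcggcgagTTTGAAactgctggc
Kif11 (chr19:37376232-37376381, plus strand): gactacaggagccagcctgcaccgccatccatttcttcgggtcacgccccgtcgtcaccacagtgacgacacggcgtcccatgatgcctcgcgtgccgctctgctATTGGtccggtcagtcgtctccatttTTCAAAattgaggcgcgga
Cdc20 (chr4:118437344-118437493, minus strand): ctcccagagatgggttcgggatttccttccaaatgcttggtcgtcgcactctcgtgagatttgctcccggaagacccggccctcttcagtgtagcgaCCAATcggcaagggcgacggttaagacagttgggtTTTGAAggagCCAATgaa
Cdc25b (chr2:131186798-131186947, plus strand): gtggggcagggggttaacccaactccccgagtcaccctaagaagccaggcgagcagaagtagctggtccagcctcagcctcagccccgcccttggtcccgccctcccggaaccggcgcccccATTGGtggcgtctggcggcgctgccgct
Ncaph (chr2:127133955-127134104, minus strand): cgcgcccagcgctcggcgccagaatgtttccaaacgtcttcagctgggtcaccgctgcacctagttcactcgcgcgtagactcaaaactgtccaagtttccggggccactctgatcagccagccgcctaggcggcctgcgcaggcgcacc
Counted by gene, 28 had both sets of letters in a window, 4 had CHR letters alone, 3 had CCAAT alone and 8 had neither. Bub3 and Cdc25b were among the 28, while Kif18a, Mad2l1, Melk, Mybl2, Ncaph, Nuf2 and Nusap1, all called in litters 1 and 3, were among the 8 with neither, as was Pttg1. Such matches describe letters in a window and do not show that a factor binds there.

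The proliferation markers Mki67, which encodes the Ki-67 protein that coats mitotic chromosomes, and Top2a, the topoisomerase that untangles replicated DNA, were among the members with most counts. Mki67 stood at 128, 67.7, 22.3 and 55.1 CPM in the males of litters 1 to 4 and 108, 79.2, 30.9 and 60.5 CPM in the females. Top2a stood at 104, 55.7, 14.8 and 41.1 CPM in males and 84.9, 53.1, 22.2 and 43 CPM in females. For both genes the litters did not overlap, and the female of litter 3 lay above the male. Against the other 3 litters, the log2 difference of Mki67 was 1.30 (SE 0.10, adjusted p = 1.42e-05) in litter 1 and -1.60 (SE 0.12, adjusted p = 3.39e-06) in litter 3. That of Top2a was 1.45 (SE 0.11, adjusted p = 1.42e-05) in litter 1 and -1.73 (SE 0.14, adjusted p = 5.6e-06) in litter 3. The mean of litter 1 was 4.43 times that of litter 3 for Mki67 and 5.12 times for Top2a.

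All 5 mitotic kinases were higher in litter 1 and lower in litter 3. Cdk1, the kinase that drives entry into mitosis, had 35.1, 20.1, 8.03 and 16.1 CPM in the males of litters 1 to 4 and 28.6, 20.6, 13.3 and 18.8 CPM in the females. Plk1, the Polo kinase of centrosome maturation and spindle assembly, had 14.4, 10.4, 1.95 and 6.42 CPM in males and 13, 11.1, 2.68 and 9.03 CPM in females. Nek2, a kinase of centrosome separation, had 12.6, 6.11, 1.48 and 4.41 CPM in males and 10.2, 5.67, 1.93 and 4.49 CPM in females. In each of these 3 genes the litter 3 libraries were the lowest and the litter 1 libraries the highest. The log2 difference of Cdk1 was 1.05 (SE 0.13, adjusted p = 0.000419) in litter 1 and -1.12 (SE 0.16, adjusted p = 0.000393) in litter 3. For Plk1 the corresponding values were 1.26 (SE 0.13, adjusted p = 0.000141) in litter 1 and -2.20 (SE 0.18, adjusted p = 7.87e-06) in litter 3. For Nek2 they were 1.70 (SE 0.14, adjusted p = 2.09e-05) in litter 1 and -2.01 (SE 0.19, adjusted p = 2.41e-05) in litter 3. The litter 3 difference of Cdk1 was smaller in size than the median of its class, -1.94. Melk, a kinase of cycling cells with low counts (19 in its lowest library), had 7.55, 4.99, 0.824 and 4.02 CPM in males and 7.03, 4.09, 2.27 and 4.58 CPM in females, and its differences were 1.26 (SE 0.21, adjusted p = 0.00295) in litter 1 and -1.87 (SE 0.29, adjusted p = 0.000707) in litter 3. Without the male of litter 1, the call of Melk in litter 1 was lost, at 1.09 (adjusted p = 0.0979). Aurka, the Aurora A kinase of spindle poles, moved with the class at 1.32 (SE 0.17, adjusted p = 0.000621) in litter 1 and -1.94 (SE 0.24, adjusted p = 0.00013) in litter 3.

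**Figure D2:**
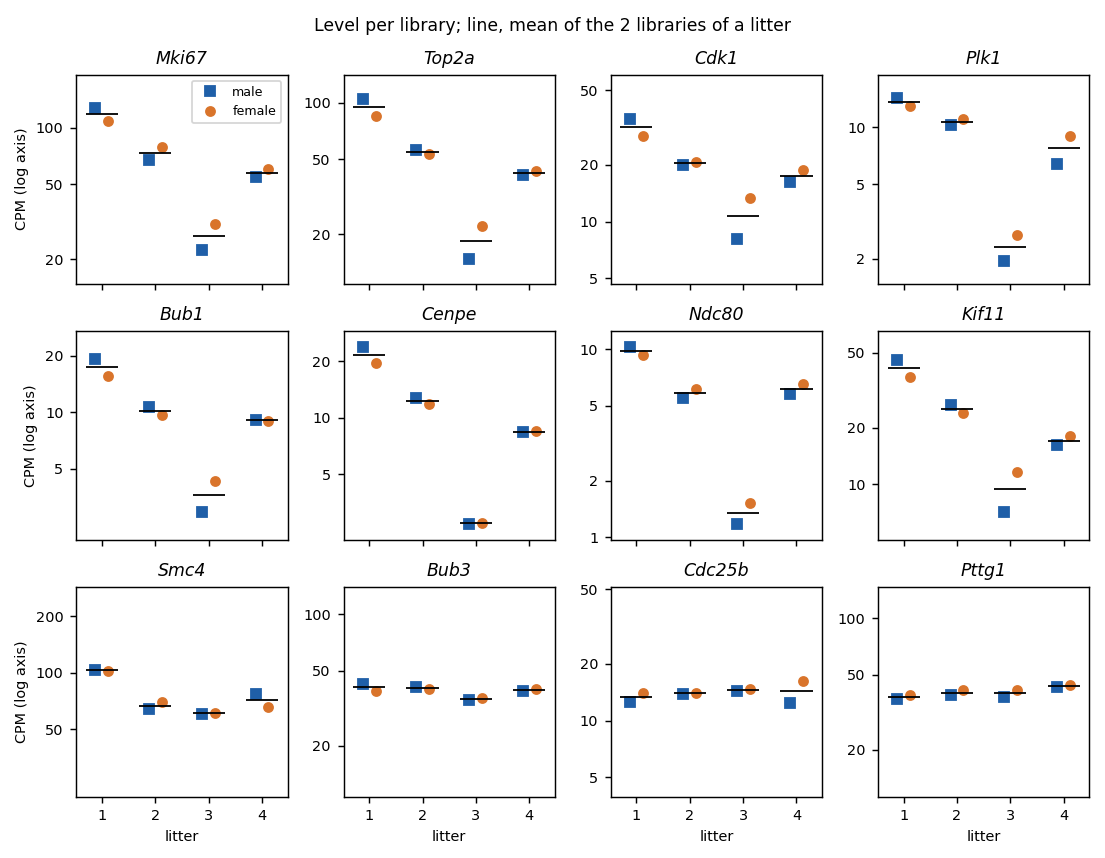
CPM per library (log axis) of 12 members by litter, with males as squares, females as circles and a line at the mean of the 2 libraries of a litter. The first 9 panels are high in litter 1 and low in litter 3, Smc4 among them with a smaller drop, while Bub3, Cdc25b and Pttg1 stay nearly level.

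The spindle checkpoint delays anaphase until every kinetochore is attached, and 4 of its 5 members here were higher in litter 1 and lower in litter 3. Bub1, the checkpoint kinase that marks centromeres, had 19.2, 10.6, 2.95 and 9.1 CPM in the males of litters 1 to 4 and 15.6, 9.67, 4.33 and 9.03 CPM in the females. Bub1b, which encodes the BUBR1 protein of the inhibitory complex, had 35.4, 22.4, 12.2 and 21.7 CPM in males and 28.9, 23, 14 and 23 CPM in females. Litter 1 and litter 3 stood apart from the other libraries in both genes. The log2 difference of Bub1 was 1.34 (SE 0.13, adjusted p = 6.67e-05) in litter 1 and -1.73 (SE 0.17, adjusted p = 2.62e-05) in litter 3. That of Bub1b was smaller, at 0.77 (SE 0.09, adjusted p = 0.00026) in litter 1 and -0.96 (SE 0.11, adjusted p = 6.78e-05) in litter 3. Mad2l1, which encodes the MAD2 protein, was close to Bub1b, at 0.81 (SE 0.10, adjusted p = 0.000355) in litter 1 and -0.98 (SE 0.12, adjusted p = 0.00012) in litter 3. Ttk, the MPS1 kinase, was at 1.32 (SE 0.20, adjusted p = 0.00162) in litter 1 and -1.28 (SE 0.26, adjusted p = 0.00384) in litter 3. The Ttk calls were lost without the male of litter 1 in litter 1 (0.98, adjusted p = 0.105) and without the male of litter 3 in litter 3 (-0.85, adjusted p = 0.11).

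All 9 centromere and kinetochore genes were called in both litters, with medians of 1.36 in litter 1 and -1.55 in litter 3. Cenpe, a kinesin that carries chromosomes to the spindle equator, had 23.6, 12.7, 2.73 and 8.38 CPM in the males of litters 1 to 4 and 19.5, 11.8, 2.75 and 8.48 CPM in the females. Cenpf, a large protein of the outer kinetochore and nuclear matrix, had 51.3, 28.6, 6.77 and 23.5 CPM in males and 43.1, 26, 8.46 and 19.1 CPM in females. Both genes followed the order of litters 1, 2, 4 and 3 from high to low with no overlap. Cenpe and Cenpf shared the smallest adjusted p of the 50 genes in the litter test, 3.04e-06. The differences of Cenpe were 1.71 (SE 0.10, adjusted p = 3.37e-06) in litter 1 and -2.26 (SE 0.14, adjusted p = 1.42e-06) in litter 3. Cenpf was at 1.53 (SE 0.09, adjusted p = 3.37e-06) in litter 1 and -2.01 (SE 0.12, adjusted p = 1.32e-06) in litter 3. The 4 subunits of the NDC80 complex, which binds the microtubule end, had fitted changes of unequal size. In litter 3, Ndc80 was at -2.42 (SE 0.19, adjusted p = 6.21e-06) and Nuf2 at -2.19 (SE 0.20, adjusted p = 1.71e-05), while Spc24 was at -1.34 (SE 0.15, adjusted p = 6.95e-05) and Spc25 at -1.44 (SE 0.20, adjusted p = 0.000349). Ndc80 and Nuf2 form the microtubule-binding end of the complex and Spc24 and Spc25 its kinetochore end, and the difference between these pairs was not tested.

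Of the inner kinetochore genes, Cenpk and Cenpa had smaller differences than Cenpi. Cenpk, a subunit of the constitutive centromere network, had 5.46, 3.08, 1.87 and 3.91 CPM in the males of litters 1 to 4 and 5.43, 3.55, 2.2 and 2.69 CPM in the females. Litter 1 was highest and litter 3 lowest in Cenpk, with no overlap of either with the other 6 libraries. Its log2 difference was 0.96 (SE 0.18, adjusted p = 0.00482) in litter 1 and -0.95 (SE 0.22, adjusted p = 0.00759) in litter 3. The litter 1 call of Cenpk was lost without the male (0.99, adjusted p = 0.092) or the female (0.94, adjusted p = 0.0941) of that litter, and the litter 3 call without the male of litter 3 (-0.77, adjusted p = 0.122). Cenpa, the histone H3 variant that marks centromeres, was at 0.64 (SE 0.10, adjusted p = 0.00149) in litter 1 and -0.74 (SE 0.11, adjusted p = 0.000459) in litter 3, and its litter 1 value without the male of that litter was 0.39 (adjusted p = 0.0893). Cenpi, of the same network as Cenpk, was at 1.36 (SE 0.15, adjusted p = 0.000198) in litter 1 and -1.55 (SE 0.20, adjusted p = 0.000198) in litter 3.

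The 7 kinesins, motors that slide, bundle or shorten spindle microtubules, were all higher in litter 1 and lower in litter 3. Kif11, the motor that pushes spindle poles apart, had 46, 26.3, 7.16 and 16.1 CPM in the males of litters 1 to 4 and 37.2, 24, 11.6 and 18.1 CPM in the females. Kif22, which pushes chromosome arms away from the poles, had 13.5, 8.28, 1.82 and 6.59 CPM in males and 12.8, 10.1, 2.41 and 8.27 CPM in females. The litters of both genes stood in the order 1, 2, 4, 3 with no overlap. Kif11 was at 1.40 (SE 0.13, adjusted p = 4.48e-05) in litter 1 and -1.52 (SE 0.16, adjusted p = 4.83e-05) in litter 3. Kif22 was at 1.33 (SE 0.12, adjusted p = 5.46e-05) in litter 1 and -2.21 (SE 0.17, adjusted p = 4.53e-06) in litter 3. Kif18a, which dampens chromosome movement at the equator, had the lowest level per kilobase of the 50 genes, 0.324 CPM per kb, and stood at 4.98, 3.58, 1.74 and 2.96 CPM in males and 4.52, 3.37, 2 and 2.31 CPM in females. Its differences were 0.89 (SE 0.17, adjusted p = 0.00542) in litter 1 and -0.93 (SE 0.21, adjusted p = 0.0062) in litter 3. The litter 1 call of Kif18a was lost without the male (0.87, adjusted p = 0.12) or the female (0.91, adjusted p = 0.091) of litter 1, and the litter 3 call without the male of litter 3 (-0.72, adjusted p = 0.129). Kif2c, Kif4, Kif15 and Kif18b ranged from 1.18 to 1.54 in litter 1 and from -2.28 to -1.56 in litter 3. Of Kif15, which backs up Kif11, the litter 1 call was lost without the male of litter 1 (0.90, adjusted p = 0.0608). In GENCODE M21 a share of 15% of the Kif4 transcript also occurs in transcripts of Pdzd11 on the other strand, which had 5608 counts in all, so the Kif4 counts may hold reads of that gene.

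The 6 spindle assembly factors were all called in both litters and had the narrowest range of the classes with 5 or more genes, from -2.20 to -1.85 in litter 3. Tpx2, which activates Aurora A and nucleates microtubules near chromosomes, had 27.9, 16.2, 4.25 and 11.1 CPM in the males of litters 1 to 4 and 23.3, 17.6, 5.16 and 11.1 CPM in the females. Ckap2, a microtubule-binding protein of the spindle, had 19.1, 13.1, 3.34 and 8.6 CPM in males and 15.4, 11.2, 3.44 and 8.19 CPM in females. Nusap1, which bundles microtubules around chromosomes, had 19, 11.6, 2.21 and 8.55 CPM in males and 14.2, 12.1, 4.54 and 9.66 CPM in females. Litters 1, 2, 4 and 3 followed each other without overlap in all 3. Tpx2 was at 1.42 (SE 0.10, adjusted p = 1.2e-05) in litter 1 and -1.86 (SE 0.13, adjusted p = 2.99e-06) in litter 3. Ckap2 was at 1.30 (SE 0.10, adjusted p = 2.04e-05) in litter 1 and -1.85 (SE 0.14, adjusted p = 3.5e-06) in litter 3. Nusap1 was at 1.24 (SE 0.17, adjusted p = 0.000704) in litter 1 and -1.93 (SE 0.23, adjusted p = 0.000101) in litter 3. Hmmr, the hyaluronan-mediated motility receptor that also sits at spindle poles, had the largest difference of the 50 genes in litter 1, 1.72 (SE 0.14, adjusted p = 2.08e-05). The remaining members, Ckap2l and Dlgap5, were at -2.15 (SE 0.21, adjusted p = 2.96e-05) and -2.04 (SE 0.22, adjusted p = 5.47e-05) in litter 3.

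**Figure D3:**
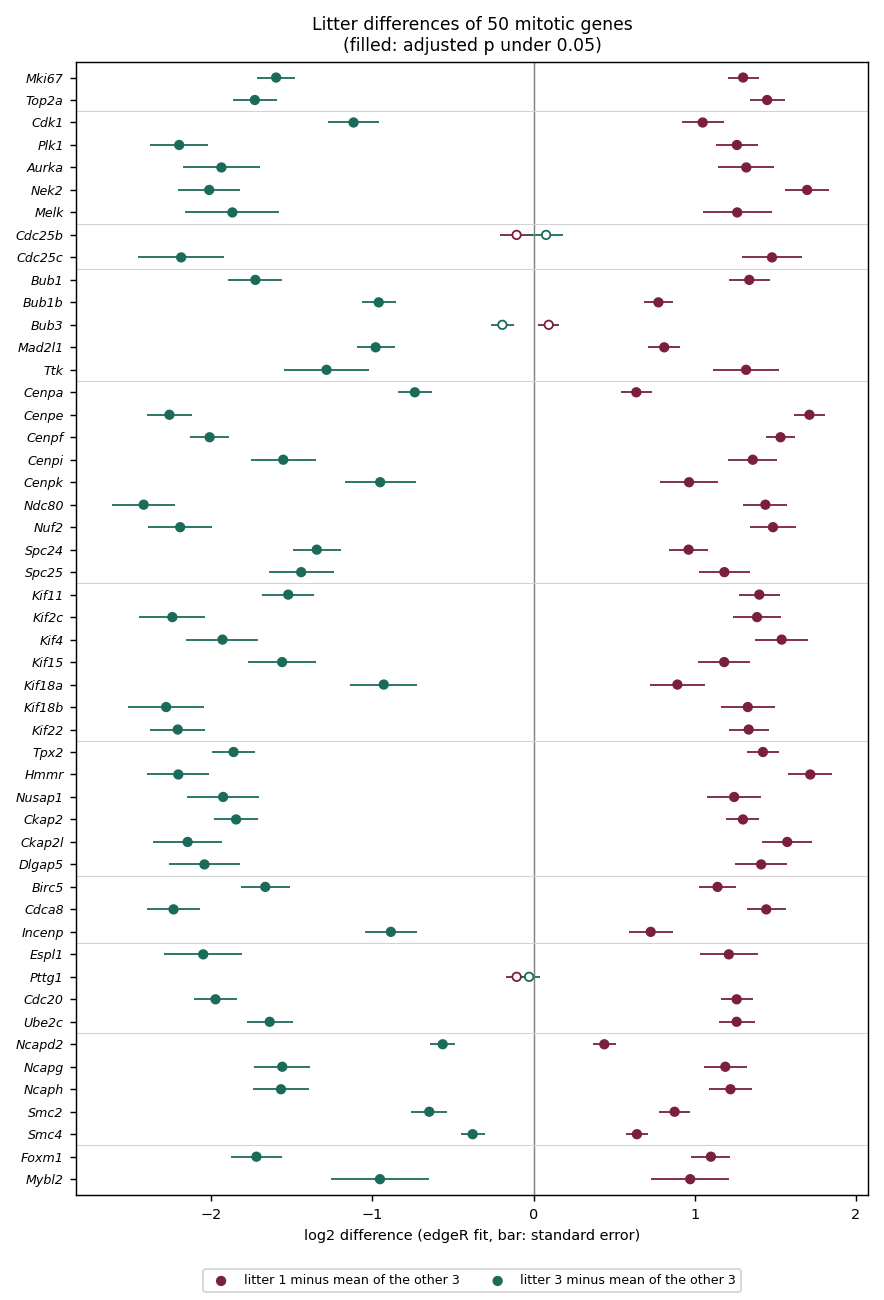
Fitted log2 difference of each of the 50 genes in litter 1 and in litter 3 against the mean of the other 3 litters, with bars for the standard error and filled symbols for an adjusted p under 0.05. The litter 3 values run from -2.42 (Ndc80) to 0.08 (Cdc25b), and open symbols mark only Cdc25b, Bub3 and Pttg1.

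The chromosomal passenger complex corrects faulty attachments and later guides cytokinesis, and its 3 members here were all called in both litters. Cdca8, which encodes Borealin, had 19.95, 11.6, 2.26 and 9.997 CPM in the males of litters 1 to 4 and 16.9, 11.2, 3.37 and 10.03 CPM in the females. Birc5, which encodes Survivin, had 20.6, 13.8, 3.82 and 9.61 CPM in males and 18.8, 14.4, 5.57 and 12.5 CPM in females. Incenp, the scaffold of the complex, had 20.9, 14.3, 7.33 and 9.38 CPM in males and 16.2, 16.6, 8.94 and 13.6 CPM in females. Cdca8 and Birc5 were highest in litter 1 and lowest in litter 3 without overlap, while the litter 1 libraries of Incenp overlapped those of litter 2. Cdca8 was at 1.44 (SE 0.12, adjusted p = 2.39e-05) in litter 1 and -2.23 (SE 0.17, adjusted p = 3.65e-06) in litter 3. Birc5 was at 1.14 (SE 0.12, adjusted p = 0.000116) in litter 1 and -1.66 (SE 0.15, adjusted p = 1.76e-05) in litter 3. Incenp was at 0.73 (SE 0.14, adjusted p = 0.0052) in litter 1 and -0.89 (SE 0.16, adjusted p = 0.00191) in litter 3, and its litter 1 value was 0.36 (adjusted p = 0.245) without the male of litter 1 and 0.48 (adjusted p = 0.064) without litter 3. The span of Cdca8 overlaps 2264 bases of 9930104L06Rik on the other strand, which had 2309 counts in all. Of the longest Cdca8 transcript, 0.0% was shared with transcripts of another gene in stretches of 100 bases. Whether the Cdca8 counts hold reads of 9930104L06Rik was not tested.

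Of the 4 genes of anaphase and the APC/C, 3 were called in both litters. Cdc20, the coactivator that targets the APC/C at the metaphase to anaphase transition, had 21.5, 14.3, 3.38 and 10.7 CPM in the males of litters 1 to 4 and 20.3, 16.4, 4.54 and 11.7 CPM in the females. Ube2c, the ubiquitin-conjugating enzyme of the APC/C, had 39.99, 25.9, 6.64 and 17 CPM in males and 32.5, 24.6, 9.84 and 17.1 CPM in females. Both genes dropped from litter 1 through litters 2 and 4 to litter 3 without overlap. Cdc20 was at 1.26 (SE 0.10, adjusted p = 2.08e-05) in litter 1 and -1.97 (SE 0.13, adjusted p = 1.95e-06) in litter 3. Ube2c was at 1.26 (SE 0.11, adjusted p = 4.14e-05) in litter 1 and -1.64 (SE 0.14, adjusted p = 1.31e-05) in litter 3. Espl1, the separase that cuts cohesin, was at 1.21 (SE 0.18, adjusted p = 0.00126) in litter 1 and -2.05 (SE 0.24, adjusted p = 0.000105) in litter 3, and its litter 1 call was lost without the male of litter 1 (0.85, adjusted p = 0.0722) and without litter 3 (0.59, adjusted p = 0.0668). A stretch of 7.36% of Ube2c is shared with the overlapping gene Tnnc2, which had 19 counts in all.

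The condensin genes had the smallest median of the 11 classes in litter 3, -0.65, and a median of 0.87 in litter 1, and all 5 were called in both. Condensin I is a ring of Smc2 and Smc4, which also serve condensin II, and of the non-SMC subunits Ncapd2, Ncapg and Ncaph. Ncaph had 18.1, 8.9, 3.34 and 9.1 CPM in the males of litters 1 to 4 and 14.8, 11.6, 4.54 and 8.73 CPM in the females. Ncapg had 12, 8.53, 2.39 and 6.26 CPM in males and 12.7, 7.6, 3.72 and 7.05 CPM in females. Ncapd2 had 91.5, 68, 48.9 and 67.1 CPM in males and 84.8, 79.7, 56.4 and 76.1 CPM in females. In all 3 the litter 1 libraries were highest and the litter 3 libraries lowest. Ncaph was at 1.22 (SE 0.13, adjusted p = 0.000185) in litter 1 and -1.57 (SE 0.17, adjusted p = 6.9e-05) in litter 3. Ncapg was at 1.19 (SE 0.13, adjusted p = 0.000202) in litter 1 and -1.56 (SE 0.17, adjusted p = 6.88e-05) in litter 3. Ncapd2 was at 0.44 (SE 0.07, adjusted p = 0.0025) in litter 1 and -0.56 (SE 0.08, adjusted p = 0.000338) in litter 3, and its litter 1 value was 0.28 both without the male of litter 1 (adjusted p = 0.161) and without litter 3 (adjusted p = 0.0529). Smc2 was at -0.65 (SE 0.11, adjusted p = 0.00147) and Smc4 at -0.38 (SE 0.07, adjusted p = 0.0032) in litter 3, and without the male of litter 3 the Smc4 call was lost (-0.34, adjusted p = 0.0531). A share of 4.72% of the Ncapg transcript also occurs in transcripts of Lcorl on the other strand, which had 2647 counts in all, so reads of Lcorl may be among those of Ncapg. Per kilobase of exon, Smc4 and Ncapd2 had mean levels of 14.5 and 11.4 CPM per kb, while Ncapg and Ncaph had 1.07 and 2.3. The condensin share of the summed CPM of the 50 genes was 17.9% and 19.7% in the male and female of litter 1 and 30.8% and 27.5% in those of litter 3, whereas the spindle assembly share was 10.9% and 9.85% in litter 1 and 4.43% and 5.49% in litter 3.

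The transcription factors Foxm1 and Mybl2, which encodes B-Myb, activate G2 and M phase genes. Foxm1 had 19.6, 13.1, 3.47 and 10.2 CPM in the males of litters 1 to 4 and 16.7, 14.4, 5.16 and 11.1 CPM in the females. Mybl2 had 3.29, 1.91, 0.911 and 1.62 CPM in males and 2.59, 2.7, 1.31 and 1.13 CPM in females. Foxm1 was highest in litter 1 and lowest in litter 3 without overlap, while for Mybl2 litter 1 overlapped litter 2 and litter 3 overlapped litter 4. Foxm1 was at 1.10 (SE 0.12, adjusted p = 0.000185) in litter 1 and -1.72 (SE 0.16, adjusted p = 1.76e-05) in litter 3. Mybl2, with 19 counts in its lowest library and 20.0% of its transcript shared with the annotated gene Gm3320, was at 0.97 (SE 0.24, adjusted p = 0.0223) in litter 1 and -0.95 (SE 0.30, adjusted p = 0.034) in litter 3. These calls of Mybl2 were lost in 5 alternatives for litter 1 and in 7 for litter 3, DESeq2 among both (0.97, adjusted p = 0.0783, and -0.94, adjusted p = 0.0967). Without the male of litter 1 or the male of litter 3 they were 0.70 (adjusted p = 0.36) and -0.63 (adjusted p = 0.346).

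Of the CDK1-activating phosphatases, Cdc25c changed and Cdc25b did not pass the test. Cdc25c had 6.62, 4.16, 0.694 and 2.85 CPM in the males of litters 1 to 4 and 4.57, 3.42, 1.03 and 2.22 CPM in the females. Cdc25b had 12.6, 13.9, 14.4 and 12.4 CPM in males and 14.1, 14.1, 14.8 and 16.3 CPM in females. Cdc25c was highest in litter 1 and lowest in litter 3 without overlap. For Cdc25b, litter 3 lay above litters 1 and 2, and the libraries of litter 4 were the lowest and the highest of the 8. The log2 difference of Cdc25c was 1.48 (SE 0.19, adjusted p = 0.000491) in litter 1 and -2.19 (SE 0.27, adjusted p = 0.000135) in litter 3, with 15 counts in its lowest library and 20.7% of its transcript shared with the annotated gene Gm3550, which had 2 counts. For Cdc25b the values were -0.11 (SE 0.10, adjusted p = 0.533) in litter 1 and 0.08 (SE 0.10, adjusted p = 0.61) in litter 3.

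Pttg1 and Bub3 were the other members without a call. Pttg1 encodes securin, the inhibitor of separase, and had 37.3, 38.8, 38 and 42.9 CPM in the males of litters 1 to 4 and 39.1, 41.5, 41.8 and 44.1 CPM in the females. Bub3 encodes a checkpoint protein that brings Bub1 and Bub1b to kinetochores and had 42.6, 40.7, 34.9 and 39 CPM in males and 39.1, 39.8, 35.6 and 40.2 CPM in females. Both libraries of litter 3 lay below the other 6 for Bub3, by a small amount. For Pttg1 litters 1 to 3 overlapped, and both libraries of litter 4 lay above the other 6. The log2 difference of Pttg1 was -0.11 (SE 0.06, adjusted p = 0.312) in litter 1 and -0.03 (SE 0.07, adjusted p = 0.789) in litter 3. That of Bub3 was 0.09 (SE 0.07, adjusted p = 0.386) in litter 1 and -0.19 (SE 0.07, adjusted p = 0.0557) in litter 3. In litter 3, Bub3 passed the test at a mean of at least 50 counts (-0.20, adjusted p = 0.0455) and without the male of litter 4 (-0.21, adjusted p = 0.04995). Pttg1 had the highest level per kilobase of the 50 genes, 20.2 CPM per kb, and Bub3 had 5.56. Together with Cdc25b these genes made up 6.59% and 7.65% of the summed CPM of the 50 genes in the male and female of litter 1, and 21.5% and 18.3% in those of litter 3. The Bub3 gene (chromosome 7, 131560222 to 131571895, plus strand, GRCm38) lies within the annotated span of Fgfr2 on the other strand, which had 158 counts in all 8 libraries.

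Litters 2 and 4 lay between the outer litters. Against the other 3, litter 2 had 14 of the 50 genes higher, where 3.30% of all genes were called higher, and 0 lower, where the background was 0.879%. The largest were Kif18b at 0.80 (SE 0.18, adjusted p = 0.0253) and Plk1 at 0.78 (SE 0.14, adjusted p = 0.00722). In litter 4, only Ndc80 was called higher, at 0.55 (SE 0.15, adjusted p = 0.0386), with 4.71% of all genes called higher, and 0 were lower, with 5.80%. At an unadjusted p under 0.05, 1 gene was lower in litter 2 and 1 in litter 4, and DESeq2 called 0 lower in either. Of the cell type markers, 8 of 8 endothelial (median 2.14), 6 of 8 fibroblast and 3 of 6 mural markers were higher in litter 2, and 6 of 8 fibroblast and 4 of 4 smooth muscle markers were higher in litter 4. Of the 12 cardiomyocyte markers, 5 were higher and 2 lower in litter 4. Their part in the litter 2 and litter 4 differences was not tested. The 14 genes of litter 2 became 8 without the female of litter 1, 2 without the male and 0 without the female of litter 2, and 23 when the litter 3 female was left out, and were 27 with no filter on low counts. The Ndc80 call was lost without the female of litter 1, the male of litter 2, the male of litter 3 or either library of litter 4, and with DESeq2, library size alone or thinning to the smallest total, and 2 genes were lower in litter 4 without the male of litter 3. Both counts rest on litter 3 being in the reference. Without it, litter 2 had 0 genes higher and 1 lower, and litter 4 had 39 lower and a median of -0.61 in place of -0.00. The shares over all genes were not taken in that fit, so these counts cannot be set against a background.

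Neighbours in the order of the summed level were then compared directly. That order came from these same genes, so the direction of the counts was partly set in advance and they are a description. Litter 1 exceeded litter 2 in 9 of the 50 genes, against 0.232% of all genes tested, and in 0 was it lower, against 0.595%, with 0 lower at an unadjusted p under 0.05 and 0 in DESeq2. The 9 were Mki67, Top2a, Nek2, Bub1, Cenpe, Cenpf, Tpx2, Hmmr and Smc4, with differences from 0.60 to 0.96. The count was 0 without the male of litter 1 or the male of litter 2, 1 without the female of litter 2, 16 without the female of litter 1, 14 without the male of litter 4, 23 without either library of litter 3 and 25 without both. It was 38 with no filter on low counts and 1 without the sex term. Litter 2 exceeded litter 4 in Cenpe, Tpx2, Ckap2 and Ube2c, so 4 genes against 4.30% of all genes, with differences from 0.52 to 0.60. That count was 0 without any 1 of the libraries of litters 2 and 4, 2 without the male of litter 1 and 10 without the male, the female or both of litter 3. It was 15 with no filter on low counts, 8 with library size alone, 2 in DESeq2 and 1 without the sex term. Litter 4 exceeded litter 3 in 40 genes, against 10.5% of all genes, with a median of 1.24 over the 50. It was led by Ndc80 at 2.23 (SE 0.22, adjusted p = 0.00012), and 30 genes were called without the male of litter 3.

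No difference between the sexes was detectable in these genes. In edgeR's test of male minus female over 4 hearts each, 0 of the 50 genes passed, with 0.0436% of all genes called, and 0 had an unadjusted p under 0.05 or passed in DESeq2. The log2 difference ran from -0.19 for Cenpa to 0.33 for Cdc25c with a median of 0.03, and for 0 of the 50 did the male and female ranges lie apart, against 2.07% of all genes. For Mki67, for example, the mean was 68.2 ± 44 CPM over the males and 69.7 ± 32.4 CPM over the females (SD, n = 4), a log2 difference of -0.03 (SE 0.47, adjusted p = 1). Single hearts weighed on the median, which was -0.42 without the male of litter 1, 0.26 without the female of litter 1, 0.30 without the male of litter 3 and -0.16 when the litter 3 female was left out. With litter as a block, which pairs the male and female of a litter, 0 of 50 passed again, with 0.211% of all genes called. In that fit 1 gene, Cenpa, had an unadjusted p under 0.05, at -0.23 (SE 0.09, adjusted p = 0.365). Markers of other cell types moved in the blocked fit, in which 5 of 8 fibroblast markers were higher in males (median 0.70) and 1 of 8 endothelial markers was lower (median -0.71). Their part in the sex comparison of the mitotic genes was not tested.

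Within single litters, the male and female libraries were offset from each other across the genes. In litter 1, 47 of the 50 genes were higher in the male, with a median male minus female difference of 0.27 on the scale of log2(CPM + 0.5). In litter 3, 49 were higher in the female, with a median of -0.37. In litter 1 the endothelial markers summed to 16.0 CPM for the male against 61.9 CPM for the female, and in litter 3 the erythroid markers to 532 against 185 CPM. Litter 2 had such gaps too, with endothelial markers at 81.4 against 148 CPM and erythroid markers at 247 against 98.6 CPM. Fibroblast markers were higher in the male of each litter, at 166 against 111 CPM in litter 1 and 51.8 against 32.4 CPM in litter 3. The part of these markers in the offsets of the 50 genes was not tested. In litters 2 and 4 the counts higher in the male were 23 and 17, with medians of -0.03 and -0.07. Over all genes tested, between 49.6% and 52.2% were higher in the male. There is 1 pair of hearts per litter, so these differences cannot be told apart from differences between any 2 hearts and were not tested. Litters 1 and 3 were also compared within each sex. Among the 4 males, 48 of the 50 genes were highest in litter 1, against 22.5% of all genes tested, and 48 were lowest in litter 3, against 31.2%. Among the 4 females, 45 were highest in litter 1, against 24.9%, and 46 lowest in litter 3, against 32.9%.

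**Figure D4:**
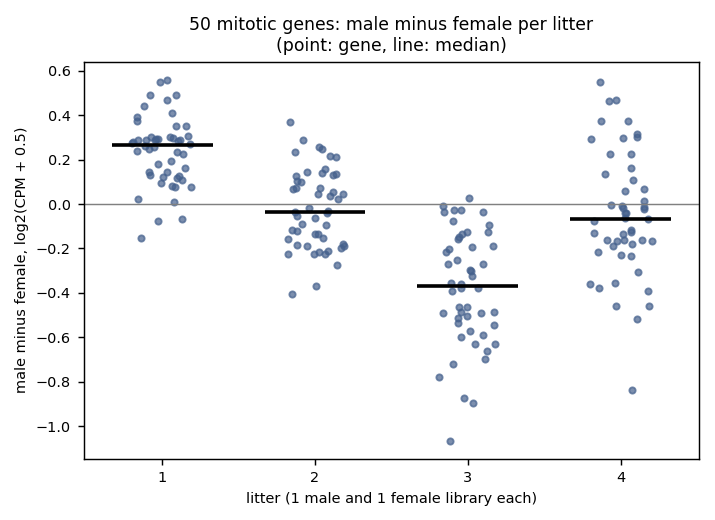
Male minus female difference of each of the 50 genes within each litter, on the scale of log2(CPM + 0.5), with a line at the median. The median is 0.27 in litter 1, -0.03 in litter 2, -0.37 in litter 3 and -0.07 in litter 4.

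Other genes of the same machinery were taken from lists grouped by function. Of 121 genes tested, 73 were higher and 1 lower in litter 1, where 7.86% and 5.41% of all genes were called. In litter 3, 77 were lower and 5 higher, where 14.8% and 13.6% of all genes were called. All 8 cytokinesis genes were higher in litter 1 and lower in litter 3, led by Kif20a, a kinesin of the midzone, at 1.45 (SE 0.09, adjusted p = 6.8e-06) in litter 1 and -2.11 (SE 0.13, adjusted p = 1.32e-06) in litter 3, and Racgap1, a subunit of centralspindlin, at 1.28 (SE 0.11, adjusted p = 2.41e-05) in litter 1 and -1.75 (SE 0.14, adjusted p = 5.57e-06) in litter 3. Of 9 genes of mitotic entry, 5 were higher in litter 1 and 7 lower in litter 3. The cyclin Ccnb1 had 22.3, 13.8, 1.82 and 9.38 CPM in males and 17.7, 12.3, 3.37 and 8.23 CPM in females, and its log2 difference was 1.61 (SE 0.14, adjusted p = 4.14e-05) in litter 1 and -2.42 (SE 0.20, adjusted p = 9.17e-06) in litter 3. Among S phase genes, 14 of 16 were higher in litter 1 and 15 lower in litter 3, with smaller medians of 0.67 and -0.90 than those of the 50 mitotic genes. The ribonucleotide reductase subunit Rrm2 led that list at 0.96 (SE 0.10, adjusted p = 0.000176) in litter 1 and -1.28 (SE 0.12, adjusted p = 2.64e-05) in litter 3.

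Further kinetochore and checkpoint genes followed in part. Of 25 other kinetochore and CENP-A loading genes, 18 were higher in litter 1 and 20 lower in litter 3, with medians of 0.70 and -0.78. Casc5, the kinetochore scaffold now named Knl1, was at 1.39 (SE 0.13, adjusted p = 6.98e-05) in litter 1 and -1.46 (SE 0.17, adjusted p = 0.000104) in litter 3. Of 10 other checkpoint and centromere protection genes, 8 were higher in litter 1 and 8 lower in litter 3, with Zwilch, of the complex that brings dynein to kinetochores, at 1.20 (SE 0.12, adjusted p = 8e-05) in litter 1 and -1.45 (SE 0.15, adjusted p = 4.23e-05) in litter 3. Of 18 other spindle genes, 11 were higher in litter 1, 10 lower in litter 3 and 3 higher in litter 3. Over all genes tested, 7.86% were higher in litter 1, 14.8% lower in litter 3 and 13.6% higher in litter 3, so the 3 higher genes are near the background. Tacc3, which stabilises spindle microtubules, was at 0.80 (SE 0.09, adjusted p = 0.000254) in litter 1 and -1.21 (SE 0.11, adjusted p = 2.1e-05) in litter 3.

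Of 15 genes of the APC/C core and its coactivators, 2 were higher and 1 lower in litter 1, where 7.86% and 5.41% of all genes were called, and 2 were lower in litter 3, where 14.8% were. These counts are near the shares over all genes. The medians were -0.01 and 0.02, beside 1.24 and -1.81 for Cdc20, Ube2c, Espl1 and Pttg1. Of 12 cohesin genes, 5 were higher in litter 1, 4 lower in litter 3 and 2 higher in litter 3. Over all genes, 13.6% were higher in litter 3, so the 2 are near the background. Rad21, the subunit that separase cleaves, was at 0.43 (SE 0.06, adjusted p = 0.000734) in litter 1 and -0.36 (SE 0.06, adjusted p = 0.0013) in litter 3, while the acetyltransferase Esco2 was at 1.32 (SE 0.14, adjusted p = 0.000168) in litter 1 and -1.40 (SE 0.18, adjusted p = 0.000232) in litter 3. Of the 3 condensin II genes, 1 was higher in litter 1 and 2 were lower in litter 3. Ncapg2 was at 0.89 (SE 0.11, adjusted p = 0.00032) in litter 1 and -0.80 (SE 0.13, adjusted p = 0.000801) in litter 3. Ncaph2 was at 0.01 (SE 0.06, adjusted p = 0.921) in litter 1 and -0.21 (SE 0.07, adjusted p = 0.0335) in litter 3, and Ncapd3 at 0.05 (SE 0.06, adjusted p = 0.677) in litter 1 and 0.09 (SE 0.06, adjusted p = 0.325) in litter 3. In the MuvB core, the scaffold on which B-Myb sits, 1 of 5 was called in each litter. It was Lin54, at 0.45 (SE 0.09, adjusted p = 0.00838) in litter 1 and -0.35 (SE 0.10, adjusted p = 0.0231) in litter 3. With 7.86% of all genes higher in litter 1 and 14.8% lower in litter 3, 1 of 5 is near the background.

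**Figure D5:**
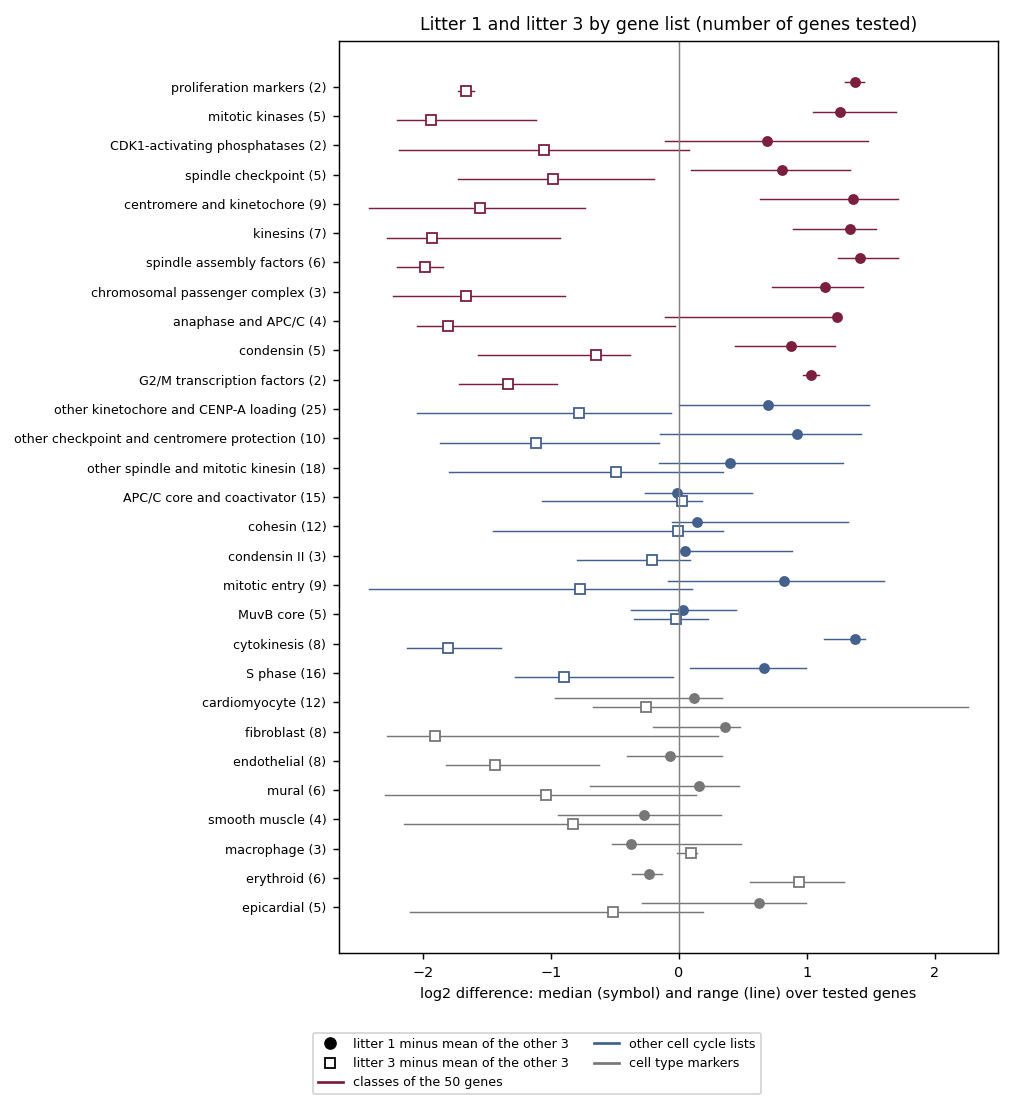
Median (symbol) and range (line) of the fitted log2 difference in litter 1 (filled circles) and litter 3 (open squares) against the other 3 litters, for the classes of the 50 genes, other cell cycle lists and cell type markers, with the number of genes tested. The symbols of litters 1 and 3 lie far apart for cytokinesis (1.38 and -1.81) and close together for the APC/C core (-0.01 and 0.02).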

How the data were processed

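RNA of purified cardiomyocytes was sequenced in 8 libraries, 4 male and 4 female. The molecule is labelled poly(A) RNA, but the protocol names a stranded kit for total RNA. Values are unnormalised read counts by gene symbol, deposited as 1 table with 8 columns, and 0 columns belong to other samples. STAR 2.7.3a and the mm10 build are named, per the submitters' processing notes. The counting program, its annotation and its strand setting are not given in the sources used here, so reads of overlapping genes on opposite strands may be mixed.

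The 50 members, their classes and the lists of other genes were chosen with earlier results of these data known. Counts were tested with edgeR 4.0.16, which builds on limma 3.58.1, under R 4.3.3. filterByExpr on sex kept 13771 genes, and libraries were scaled by TMM. CPM are counts relative to the scaled library total, and per kilobase values divide them by the union of GENCODE M21 exons (GRCm38, the build of mm10, though the authors' annotation may differ). The sexes were compared without a litter term (6 residual degrees of freedom). Litters were compared in a model with sex (3 residual degrees of freedom), by the test of the 3 litter coefficients together, by each litter against the mean of the other 3, and between neighbours in level. P-values of the quasi-likelihood F test were adjusted by Benjamini-Hochberg over all genes tested, with a threshold of 0.05. The SE is the size of the log2 difference divided by the square root of F. The p-values measure the spread between these hearts.

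The litter named in the labels pairs the 2 sexes. Deviations from the mean of each sex correlated across genes between littermates, at 0.591, 0.527, 0.74 and 0.416 for litters 1 to 4. No library repeated another, since chi-square per degree of freedom between libraries was at least 7.35. Values in every library were written for Mki67, Top2a, Cdk1, Plk1, Foxm1 and Mybl2 and, in each class, for the 2 genes with the smallest litter p-value and the 1 with the largest. Other members are given by their fitted differences, and those named beyond that rule were chosen after their values were seen. From the lists of other genes, those named in the report were picked, with their values known, among the 3 of each list with the smallest litter p-values, and those in the closing section for their direction in litter 3. Knl1, Sgo1 and Sgo2a were read under their older symbols Casc5, Sgol1 and Sgol2a, and Ahsp was not found. The result of 1 list of cell type markers is not reported here.

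Alternatives were RLE factors, library size alone, DESeq2 1.42.0, other filters on low counts, thinning to the smallest total, removal of mitochondrial genes, of each library and of litter 3, a litter block for the sexes and no sex term for the litters. Promoters came from RefSeq (GRCm38.p6), and genes with no entry were not searched. Scripts were checked on simulated counts.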

Additional observations from a re-analysis of the deposited data

Results flagged for a closer look

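The male minus female difference of the 50 genes had opposite signs in 2 litters. Its median on the scale of log2(CPM + 0.5) was 0.27 in litter 1, where 47 of 50 genes were higher in the male, and -0.37 in litter 3, where 49 of 50 were higher in the female. The difference between the litters was not tested, since each litter has 1 male and 1 female heart. The male library was the deeper of the pair in both litters, with totals of 24910243 against 24250715 counts in litter 1 and 22534910 against 14226342 in litter 3, and the part of depth was not tested. Nor was that of the endothelial markers, at 16.0 CPM for the male against 61.9 CPM for the female of litter 1. The part of the erythroid markers, at 532 against 185 CPM in litter 3, was not tested either. In litter 2 these markers also differed, at 81.4 against 148 CPM (endothelial) and 247 against 98.6 CPM (erythroid). The median over the 50 genes was -0.03 there. Fibroblast markers were higher in the male of each litter, at 166 against 111 CPM in litter 1 and 51.8 against 32.4 CPM in litter 3. No single library stood apart from the other 3 of its sex in any of the 124 groups of 4 values examined. For unrelated groups chance would give about 6.2. Each group holds 1 library per litter and the genes move together, so this count cannot show that no library was unusual.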

How the results depend on the processing

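The litter test, the 47 genes higher in litter 1, the 47 lower in litter 3 and the 40 higher in litter 4 than in litter 3 stayed within 1.5 times of these counts in every alternative that gave a value. Over all comparisons, 361 counts and medians stayed within 1.5 times (counts) or 0.18 (medians), and 58 moved. The 0.18 is the SD between libraries of the members' mean log2 level that remains after litter and sex are fitted. With the replicate block (litter), the sex comparison again had 0 genes higher and 0 lower. For the other alternatives the share over all genes was not taken, so their counts stand without a background. Without litter 3, the median fell to 0.74 in litter 1, -0.10 in litter 2 and -0.61 in litter 4, 0 genes were higher and 1 lower for litter 2, and for litter 4 the counts were 0 and 39. With no filter on low counts, litter 2 had 27 genes higher, litter 4 had 2 lower, litter 1 exceeded litter 2 in 38 genes and litter 2 exceeded litter 4 in 15. The Ndc80 call in litter 4 was lost, leaving 0 genes higher, with library size alone, DESeq2 and thinning. Litter 4 had 1 gene lower with RLE factors, library size alone or a mean of at least 50 counts. Litter 2 exceeded litter 4 in 8 genes with library size alone and 2 with DESeq2. Among alternatives chosen after seeing the data, leaving out litter 3 gave 25 genes for litter 1 over 2 and 10 for litter 2 over 4, and leaving out the sex term gave 1 for each. Leaving out 1 library at a time, medians ranged from -0.42 to 0.30 for male minus female, 1.03 to 1.49 in litter 1, 0.31 to 0.55 in litter 2, -1.95 to -1.34 in litter 3, -0.09 to 0.09 in litter 4, 0.37 to 0.74 for litter 1 minus 2 and 0.94 to 1.48 for litter 4 minus 3. Counts then ranged from 0 to 23 higher in litter 2, 0 to 1 higher and 0 to 2 lower in litter 4, 0 to 23 for litter 1 over 2 and 0 to 10 for litter 2 over 4. Gene by gene, 3 values reversed, all without a call. In litter 3, Cdc25b was -0.000387 without the male of litter 3 (range over libraries left out -0.000387 to 0.146), and Pttg1 was 0.0167 with library size alone and 0.00922 without that male (range -0.0637 to 0.00922). The causes of these shifts were not tested. No value could be had for litter 3 without its own libraries or for the sexes without a sex term. Each litter had 2 hearts, and Cdc25c, Kif18b, Melk, Mybl2, Kif2c and Ndc80 had only 15 to 22 counts in the lowest library, which limits the precision of their values there.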

Other observations

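A few spindle and cohesin genes went the opposite way to the mitotic genes in litter 3. They were chosen after their values were seen. Clasp1, which stabilises microtubules at their growing ends, had 612, 660.2, 855 and 572 CPM in the males of litters 1 to 4 and 655, 672, 768 and 667 CPM in the females, and its log2 difference in litter 3 was 0.35 (SE 0.07, adjusted p = 0.00308) in edgeR's test. Its relative Clasp2 was at 0.31 (SE 0.07, adjusted p = 0.00455), and Numa1, which anchors spindle poles, was at 0.27 (SE 0.06, adjusted p = 0.00577). The cohesin loader Nipbl had 92.6, 94.9, 117 and 89.6 CPM in males and 98.4, 91.2, 118 and 87.5 CPM in females, at 0.34 (SE 0.06, adjusted p = 0.00129). The cohesin subunit Stag2 was at 0.30 (SE 0.09, adjusted p = 0.0285). These genes also act outside mitosis, in the microtubule array and in chromatin of cells that do not divide. They are the 3 of 18 other spindle genes and the 2 of 12 cohesin genes that were higher in litter 3. Among all genes tested, 13.6% were higher in litter 3, so these counts are near the background. Over all the lists of other genes, 5 of 121 were higher there.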
